A study of Danio rerio with 4 samples.

Results

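Trypsins and chymotrypsins are the serine proteases that the exocrine pancreas secretes to digest protein. They were followed here in whole zebrafish embryos of the WIK strain, comparing Msp mutants with wild types at 3 and 6 days post fertilization (dpf). The genes were taken by name: prss1, prss59.1, prss59.2, ctrl, ctrb.1 and ctrb.2. All non-control probes matched to one of them by transcript identifier, symbol or older symbol were included. Of these 6 genes, 5 had a probe on the array, with 10 probes among them, out of 26632 genes with complete values. The 5 were prss1 (listed as try, 3 probes), prss59.1 (listed as zgc:66382, 2 probes), ctrl (2 probes), ctrb.1 (listed as ctrb1, 2 probes) and ctrb.2 (listed as zgc:136461, 1 probe). No probe matched prss59.2, which was not analysed here.

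The study compared mutants of macrophage stimulating protein (Msp, gene mst1), a growth factor-like protein of the hepatocyte growth factor family, with wild types. The 4 RNA pools were wild type and Msp mutant at 3 dpf and at 6 dpf, each from 30 embryos raised untreated in E3 medium at 28 °C, with 1 pool per genotype and stage. The labels give the genotype only as mutant, with no allele. Each stage was run on 2 dye-swapped arrays, with the mutant in Cy5 on array 1 and in Cy3 on array 2, and all 4 arrays lay on 1 slide. Each ± is the SD over the pair of arrays, which reflects labelling and hybridisation and not the spread among animals.

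Acinar cells store these proteases as inactive zymogens and release them into the gut. There the intestinal protease enteropeptidase activates trypsin, and trypsin activates the chymotrypsins. Trypsins cut proteins after basic residues and chymotrypsins after large hydrophobic ones. In zebrafish the acinar compartment grows and fills with zymogen while the larva lives on its yolk and before it begins to feed. In the reference gene table, ctrb.1 and ctrb.2 are direct neighbours, as are prss59.1 and prss59.2. The genes prss1 and prss59.1 lie on the same chromosome with 55 gene starts between them. Whether a probe of one of these related genes also binds transcripts of another was not tested.

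Across the arrays, the median spot read 146.5 to 154 in green and 167 to 187 in red, beside local backgrounds of 47.5 to 49 and 87 to 87.5. Of all probes, 59.7% to 69.3% in green and 73.6% to 75% in red were well above background, and no spot was saturated. The ratios of the swapped arrays correlated at 0.412 at 3 dpf and 0.403 at 6 dpf across 18886 genes, which do not count as independent replicates. The targeted gene mst1 fell in the mutant (limma over both stages, adjusted p = 0.0414), with a log2 ratio of -0.65 ± 0.06 at 3 dpf and -1.12 ± 0.16 at 6 dpf. In what follows a log2 ratio sets the mutant over the wild type, so that values below 0 mean less signal in the mutant.

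The protease genes differed most between the stages. Signals are given in arbitrary units after background correction, which adds an offset of 50, so that signals near 70 to 80 are close to background and folds of dim probes are understated. The brightest prss1 probe, for a trypsin, read 704.7 in wild type and 495.9 in the mutant at 3 dpf, and 103393 and 65693 at 6 dpf. The brightest prss59.1 probe, for another trypsin, read 128.7 and 94.2 at 3 dpf, and 25661 and 14999 at 6 dpf. In both genes the order of the pools was the same, with wild type at 6 dpf highest, then the mutant at 6 dpf, wild type at 3 dpf and the mutant at 3 dpf, and no array of 1 stage overlapped with those of the other.

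For ctrl, a chymotrypsin-like protease, the brightest probe read 151.4 in wild type and 96.3 in the mutant at 3 dpf, and 57316 and 32079 at 6 dpf. The brightest probe of ctrb.1, a chymotrypsinogen B, read 323.4 and 253.1 at 3 dpf, and 53104 and 33914 at 6 dpf. The pools of both genes stood in the order seen for the trypsins. The single probe of ctrb.2, its neighbouring chymotrypsinogen B gene, read 78.7 and 72.6 at 3 dpf, where neither array held it well above background, and 13820 and 8702 at 6 dpf. Its order of wild type and mutant at 3 dpf is therefore not given.

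**Figure D1:**
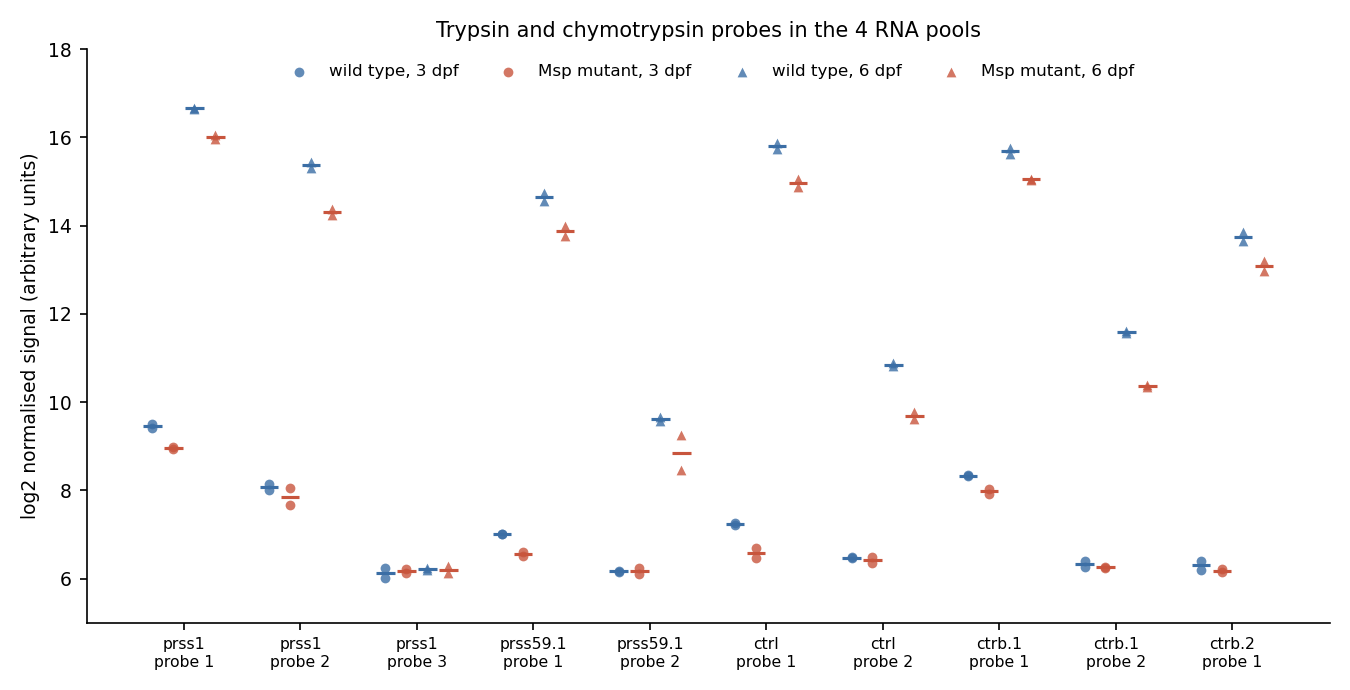
Log2 normalised signal (arbitrary units) of each of the 10 probes in the 4 RNA pools, with circles for 3 dpf, triangles for 6 dpf, blue for wild type and red for the Msp mutant. Each point is 1 array and each line the mean of 2 arrays. For 9 probes every 6 dpf point lies above every 3 dpf point, and the third prss1 probe stays between log2 signals of 6.13 and 6.22 on average.

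All 5 genes rose from 3 to 6 dpf in limma over the 4 pools, where 4.85% of the 18886 genes tested rose and 1036 genes fell. The fitted log2 change was 8.47 (SE 0.081, limma adjusted p = 8.51e-07) for ctrl, a 355-fold rise. It was 7.48 (SE 0.098, limma adjusted p = 1.67e-06) for prss59.1, 7.21 (SE 0.094) for ctrb.1 and 7.12 (SE 0.078) for prss1, or 178-fold, 148-fold and 139-fold. Among all genes tested these 4 held ranks 1, 4, 5 and 7 by fitted change, with genes near background at 3 dpf included in the ranking. Ranks 2 and 3 went to the elastases ela3l and cela1.6, with log2 changes of 8.41 and 7.60, and ranks 9 and 10 to the elastases ela2l and ela2.

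Both genotypes showed the rise. In wild type the log2 change from 3 to 6 dpf was 7.20 for prss1, 7.64 for prss59.1, 8.56 for ctrl and 7.36 for ctrb.1. In the mutant it was 7.05, 7.31, 8.38 and 7.07, each below the wild-type value, by 0.15 to 0.33. For ctrl and prss59.1 this order turned with the scanner's processed signals. It also turned with the deposited table, which holds the scanner's own processed ratios. These ratios are given with the 3 dpf values. For ctrb.2, which was not well above background at 3 dpf, the signal at 6 dpf was at least 175.5-fold higher in wild type and at least 119.9-fold higher in the mutant. The bound takes the higher of its own 3 dpf signal and the lowest signal well above background. Here its own signal was the higher, so the bounds equal the measured folds over a signal near background. The difference between the 2 rises is the difference between the genotype ratios at 6 and 3 dpf, and with 1 pool per group it has no test.

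The other probes read higher at 6 dpf as well, apart from the third prss1 probe. The second prss1 probe was 157-fold higher in wild type (269.5 to 42413), beside 147-fold for the brightest, and 87.8-fold higher in the mutant (232.2 to 20390), beside 132-fold. The second ctrl probe, well above background on 1 of 2 arrays per genotype at 3 dpf, was 20.8-fold (88.8 to 1844) and 9.63-fold (86.2 to 829.8) higher. The second probes of ctrb.1 and prss59.1 were not well above background at 3 dpf and give bounds of at least 38.7-fold and 17.3-fold, and of at least 11.0-fold and 6.42-fold, for wild type and mutant in turn. These bounds also equal the measured folds. The third prss1 probe, designed on an expressed sequence tag, was not well above background in any pool (70.1 to 74.4) and was left out of the tests.

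In the mutant, every protease gene measured was lower than in wild type at 6 dpf. The log2 ratio was -0.63 on array 1 and -0.68 on array 2 for prss1, a mean of -0.65 ± 0.03, so the mutant held 63.5% of the wild-type signal. For prss59.1 the arrays gave -0.98 and -0.57, a mean of -0.77 ± 0.29 or 58.4% of wild type. The arrays agreed closely for prss1 and spread more widely for prss59.1, but both kept the mutant below wild type.

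The chymotrypsins were lower by similar amounts at 6 dpf. For ctrl the arrays gave -0.86 and -0.81, a mean of -0.84 ± 0.04 or 56.0% of wild type. For ctrb.1 they gave -0.59 and -0.71, a mean of -0.65 ± 0.08 or 63.9%, and for ctrb.2 -0.87 and -0.47, a mean of -0.67 ± 0.28 or 63.0%. The 5 genes thus lay between -0.84 and -0.65 with a median of -0.67, beside a median of 0.01 for all genes tested. All 5 were lower on both 6 dpf arrays, as were 26.4% of all genes. None met the size rule for a lower gene, which asks for an absolute log2 ratio of at least 1 (0 of 5, beside 0.265% of all genes), since every mean stopped short of it.

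At 3 dpf, 4 of the 5 genes were lower in the mutant on both arrays, and only prss1, ctrl and ctrb.1 were well above background in both genotypes on both arrays. The log2 ratio was -0.54 and -0.48 on the 2 arrays for prss1 (mean -0.51 ± 0.04, or 70.4% of wild type), and -0.75 and -0.55 for ctrl (mean -0.65 ± 0.14, or 63.6%). It was -0.28 and -0.42 for ctrb.1 (mean -0.35 ± 0.10, or 78.2%). For prss59.1 it was -0.49 and -0.41 (mean -0.45 ± 0.05), with the mutant signal well above background on 1 of 2 arrays. The signals of ctrb.2 were above local background but not well above it on any 3 dpf array, so no fold is given, and its measured ratios were -0.25 and 0.01.

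Lower on both 3 dpf arrays were thus 4 of 5 genes, as were 26.7% of all genes, and the same 4 were lower on all 4 arrays, as were 11.6% of all genes. The median over the 5 genes at 3 dpf, ctrb.2 included, was -0.45, beside 0.01 for all genes. No gene met the size rule at 3 dpf (0 of 5, beside 0.169% of all genes). The scanner's processed signals carry no added offset. With them the 3 dpf ratios were -1.41 for ctrl, -1.35 for prss59.1, -0.61 for prss1 and -0.48 for ctrb.1. Of the 5 genes 2 then met the rule, but the number of all genes that met it also rose, from 32 to 122. Likewise 2 of the 5 met it with the deposited table, beside 169 of all genes. The 3 dpf value there is array 2 alone, so the rule could not be asked of both arrays. At 6 dpf the processed signals gave -0.74 for ctrl and -0.75 for prss59.1, so the ratios of these 2 genes lay further from 0 at 3 dpf than at 6 dpf, the reverse of the order with the offset of 50. The deposited table had the same order, with -1.01 and -0.74 for ctrl and -1.39 and -0.75 for prss59.1 at 3 and 6 dpf. It holds the scanner's own processed ratios and so is no separate source. With an offset of 10 ctrl turned as well (-0.97 and -0.83). Whether the genotype ratio is larger at 6 than at 3 dpf thus depended on the background correction for these genes.

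**Figure D2:**
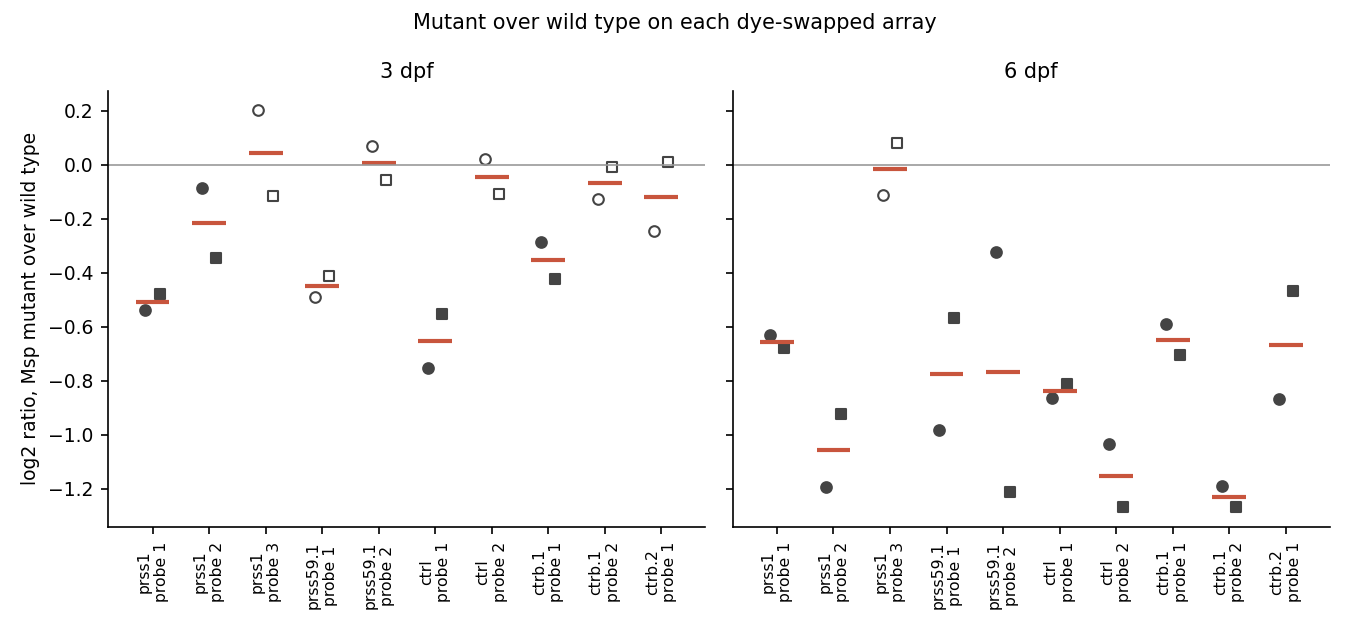
Log2 ratio of Msp mutant over wild type for each probe at 3 dpf (left) and 6 dpf (right), with circles for array 1, squares for array 2 and a red line for their mean. Filled points mark probes well above background in both genotypes on both arrays of that stage, 4 at 3 dpf and 9 at 6 dpf, and all filled points lie below 0.

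Over both stages, limma on the 2 stage values found that ctrl and prss1 fell in the mutant, 2 of 5 genes, where 0.609% of all genes fell and 86 rose. The mean log2 ratio of ctrl was -0.75 (SE 0.081, limma adjusted p = 0.0227), or 59.7% of wild type, with the mutant lower on 4 of 4 arrays. That of prss1 was -0.58 (SE 0.078, limma adjusted p = 0.0396), or 66.9%, also lower on 4 of 4 arrays. The other 3 did not pass: prss59.1 had -0.61 (SE 0.098, limma adjusted p = 0.0606), ctrb.1 -0.50 (SE 0.094, limma adjusted p = 0.0872) and ctrb.2 -0.39 (SE 0.134, limma adjusted p = 0.290). At an unadjusted limma p under 0.05 all 5 were lower, as were 6.72% of all genes. Whether ctrl or prss1 differed more from wild type than the other 3 was not tested.

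These calls depended on the processing. No gene passed with the scanner's processed signals, without background subtraction, with all probes of a gene averaged, or with the deposited table. Over the alternatives that kept both arrays of each stage, limma adjusted p ranged from 0.00712 to 0.175 for ctrl and from 0.0165 to 0.156 for prss1. Leaving out an array of 3 dpf raised the number of genes that fell, among all genes as well as among the 5. Leaving out an array of 6 dpf kept both numbers nearer to those of the full fit. In such runs the dye no longer cancels in the stage with 1 array.

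The second probes gave the same direction at 6 dpf. The second prss1 probe had log2 ratios of -1.19 and -0.92 (mean -1.06 ± 0.19, or 48.1% of wild type). That of ctrl had -1.03 and -1.27 (mean -1.15 ± 0.17, or 45.0%), and that of ctrb.1 -1.19 and -1.27 (mean -1.23 ± 0.05, or 42.7%). In these 3 genes the dimmer probe lay further from 0 than the brighter one, by more than the SD of either, and it met the size rule. The second prss59.1 probe had -0.32 and -1.21 (mean -0.77 ± 0.63, or 58.8%), the same mean as the first with a wider spread. Of 10 probes, 9 were well above background in both genotypes on both 6 dpf arrays. All 9 were lower in the mutant on both, as were 26.4% of all genes, while the share of all probes was not counted. The 9 probes read 5 genes in the same RNA pools and do not count as independent.

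At 3 dpf the second prss1 probe was the only second probe well above background on both arrays, at -0.08 and -0.34 (mean -0.21 ± 0.18). Fitted as a probe of its own, it gave -0.64 over both stages (limma adjusted p = 0.197). In that fit of single probes the first probes of ctrl, prss1 and prss59.1 fell (limma adjusted p = 0.0139, 0.0271 and 0.0433). Among all probes 271 fell in it, beside 115 genes in the main fit. For prss1, the mutant thus held 63.5% or 48.1% of the wild-type signal at 6 dpf, depending on the probe.

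The probes of these genes were among the brightest on the 6 dpf arrays, where ratios can depend on intensity. Outside the 5 genes, 395 genes were as bright in wild type at 6 dpf, and without other acinar enzymes 391 remained. Their median log2 ratio was -0.01, 205 of the 391 were below 0, and 27 were at or below -0.65, the highest value among the 5. The other bright genes were thus centred near 0, but loess normalisation draws ratios towards 0 along intensity. Their median therefore cannot show whether ratios depend on intensity. With median centring instead of loess, the 6 dpf ratios of the 5 genes lay between -1.04 (ctrl) and -0.80 (ctrb.2), with -0.89 for prss1. The part of intensity in the lower protease ratios was not tested.

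**Figure D3:**
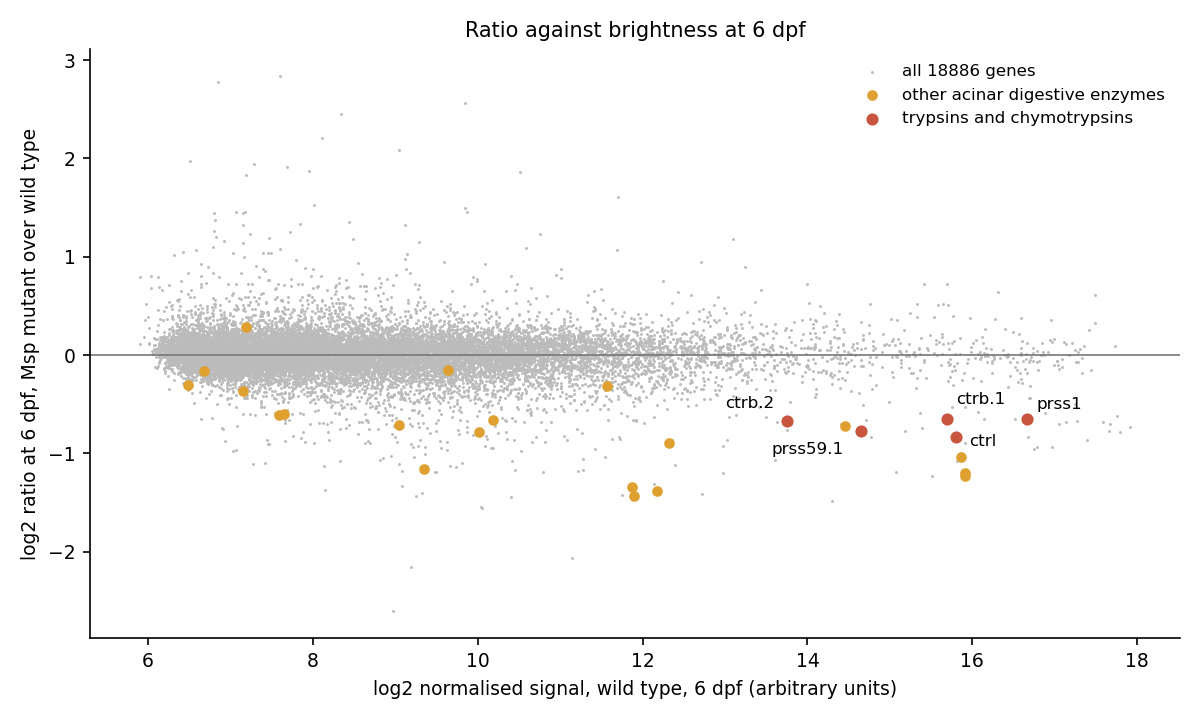
Log2 ratio of Msp mutant over wild type at 6 dpf (vertical) against log2 normalised signal in wild type at 6 dpf (horizontal, arbitrary units) for 18886 genes. The 5 trypsin and chymotrypsin genes (red) lie at the bright end between -0.84 and -0.65, and 19 of the 20 other acinar digestive enzymes (orange) lie below 0. The grey cloud of bright genes is centred near 0 after loess, which draws ratios towards 0 along intensity.

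The RNA came from whole embryos, so fewer acinar cells and less RNA per acinar cell cannot be told apart. The 6 dpf genotype ratios of the proteases, -0.84 (ctrl) to -0.65 (ctrb.1), were small beside their changes with stage. Those log2 changes from 3 to 6 dpf ran from 7.12 (prss1) to 8.47 (ctrl). Whether the mutant and wild-type pools of a stage were equally far in development was not tested. The other genes of the pancreas were measured beside the proteases. Of 29 other acinar digestive enzymes listed, 20 were measured, and their median log2 ratio was -0.06 at 3 dpf and -0.72 at 6 dpf. Whether each of them, cpb2 among them, is expressed in acinar cells was not tested. At 6 dpf 19 of 20 were below 0 and 7 met the size rule as lower, and at 3 dpf 1 met it. The lowest were cel.2, a bile salt-activated lipase (-1.43 ± 0.04), cpb1, a carboxypeptidase (-1.38 ± 0.02), and amy2a, an amylase (-1.34 ± 0.04), and at 3 dpf cpb1 stood at -0.41. At 3 dpf 6 of the 20 genes, cel.2 among them, were not well above background on any array, and amy2a was so on 1 array in wild type only. Ratios of such genes are drawn towards 0 by the offset. The list's median and count at 3 dpf are therefore not comparable with those at 6 dpf. From 3 to 6 dpf 14 of 20 rose and none fell, with a median log2 change of 3.25.

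Over both stages 1 of the 20 fell, the elastase cela1.6 (-1.15, limma adjusted p = 0.0107), while 10 were lower at an unadjusted p under 0.05. This fit counts a gap between the stage ratios as error. Thus cel.2, at -0.10 and -1.43, and amy2a, at -0.15 and -1.34, did not pass (limma adjusted p = 0.327 and 0.293). The count therefore does not measure how far the list lay below wild type at 6 dpf. The summed signal of the list in the mutant was 94.1% of wild type at 3 dpf and 47.2% at 6 dpf. The same sums for the 5 trypsin and chymotrypsin genes were 73.0% and 61.3%. All these sums carry the offset in every gene, which draws the 3 dpf percentages towards equality. They are thus not comparable between the stages, nor at 3 dpf between the 2 sets. The list's 3 dpf sum also held cpb2, its brightest gene then (log2 signal 9.31 in wild type), whose log2 change with stage was 0.22.

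Acinar secretory and protein folding genes, of which 9 of 16 were measured, had medians of -0.07 at 3 dpf and -0.08 at 6 dpf. Whether each of the 9 is particular to acinar cells was not tested, so these medians may not describe acinar cells alone. In this list pdia2, a pancreatic protein disulfide isomerase, fell (-0.53, limma adjusted p = 0.0434), with -0.56 ± 0.18 at 6 dpf. The zymogen granule gene sycn.2 had -0.68 ± 0.26 and srprb, a subunit of the signal recognition particle receptor, -0.42 ± 0.13. Over the stages 3 of the 9 rose and 2 fell.

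Among activators and inhibitors of trypsin, 10 of 15 listed genes were measured, with medians of -0.15 and -0.08 at 3 and 6 dpf. The cathepsin gene ctsl.1 rose in the mutant (0.62, limma adjusted p = 0.0290), with 0.59 ± 0.36 at 6 dpf. The alpha-1-antitrypsin genes serpina1 and serpina1l, which encode secreted serine protease inhibitors, had -0.40 ± 0.23 and -0.39 ± 0.11 at 6 dpf (limma adjusted p over both stages 0.0639 and 0.0765). From 3 to 6 dpf 7 of the 10 rose and none fell.

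The transcription factors of acinar cells showed no such shift. Of 11 listed, 9 were measured, with medians of 0.03 and -0.01, and limma called none of them for genotype (1 lower and 1 higher at an unadjusted p under 0.05) or for stage. Among those furthest from 0 at 6 dpf were prox1a (0.18) and pdx1 (-0.16). The acinar determinant ptf1a had 0.13 ± 0.08 at 3 dpf and 0.06 ± 0.27 at 6 dpf, with its signal at 6 dpf well above background on 1 of 2 arrays per genotype. Endocrine pancreas genes, 12 of 15 measured, had medians of 0.14 and -0.01, with ins at -0.38 ± 0.21, gcga at 0.32 ± 0.33 and sst2 at -0.31 ± 0.15 at 6 dpf. None was called for genotype by limma (0 lower and 2 higher at an unadjusted p under 0.05), and 1 rose with stage.

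The medians of other tissues' markers lay nearer to 0 than that of the proteases at 6 dpf, with lens genes closest to them. Hepatocyte genes, 13 of 15 measured, were all below 0 at 3 dpf (median -0.31) and had a median of -0.09 at 6 dpf, with a summed signal of 77.2% and 118% of wild type. At 6 dpf 8 of the 13 were below 0, and the sum leaned on the brightest gene, fabp10a (log2 signal 15.59 in wild type and 16.10 in the mutant). In that list ceruloplasmin, cp, fell (-0.58, limma adjusted p = 0.0328), and at 6 dpf ahsg1 stood at -0.59 and fabp10a at 0.51. Enterocyte genes, 13 of 16 measured, had medians of -0.24 and -0.11, with summed signals of 82.4% and 114%. The ileal bile acid binding protein fabp6 had -1.52 at 3 dpf and 0.54 at 6 dpf, slc15a1b -0.39 ± 0.53 and fabp2 -0.25 at 6 dpf.

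Skeletal muscle genes, 8 of 8 measured, had medians of -0.16 and -0.11. Furthest from 0 at 6 dpf were myhz2 (-0.27 ± 0.17), ckmb (-0.25 ± 0.06) and tnnt3b (-0.18 ± 0.76), the last with an SD larger than its mean. Lens genes, 5 of 6 measured, had medians of 0.02 and -0.51, with crygn2 at -0.59, crybb1 at -0.53 and lim2.4 at -0.51 at 6 dpf, and a summed signal of 69.4% of wild type. In the enterocyte, muscle and lens lists limma called no gene for genotype, while 3, 2 and 2 genes were lower at an unadjusted p under 0.05, and in the hepatocyte list 7 of 13 were. The part of these other tissues in the lower protease signal was not tested.

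**Figure D4:**
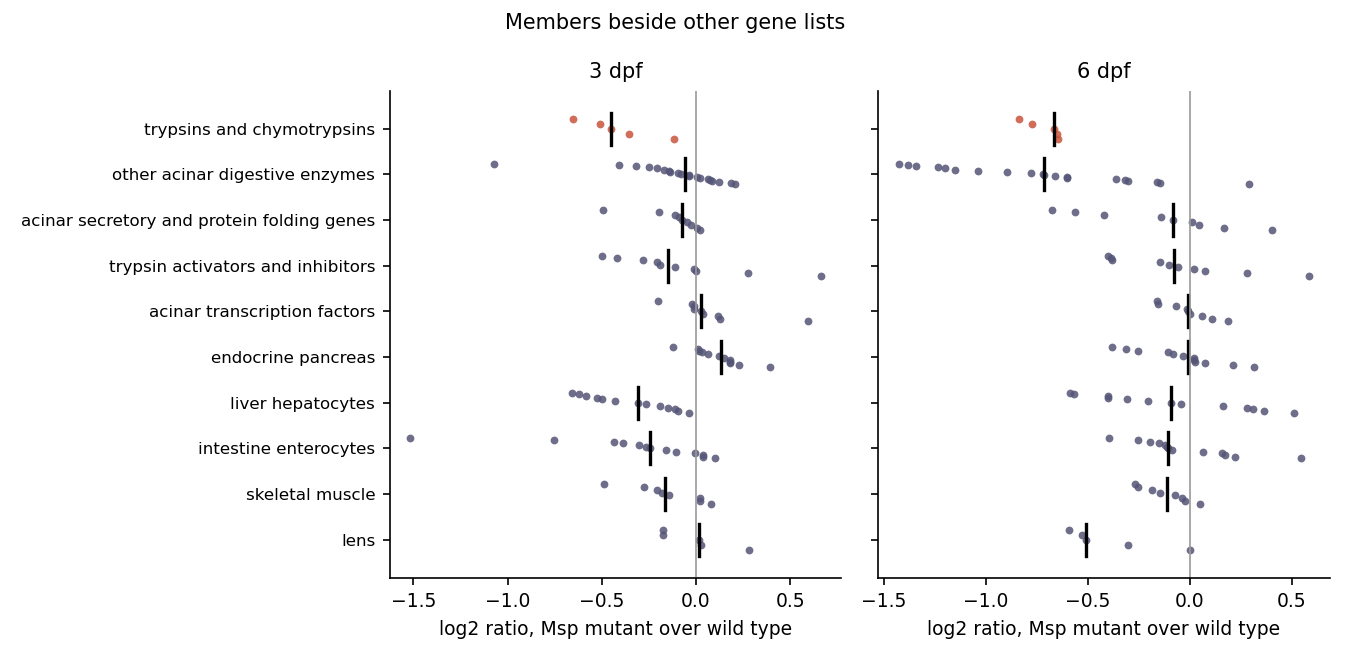
Log2 ratio of Msp mutant over wild type at 3 dpf (left) and 6 dpf (right) for each measured gene (points) of the trypsins and chymotrypsins (red) and of 9 other gene lists, with a black bar at each median. At 6 dpf the medians of the proteases (-0.67), the other acinar enzymes (-0.72) and the lens genes (-0.51) lie below those of the other lists, which lie between -0.11 and -0.01.

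The profile over the 4 pools was most alike in elastases. By Euclidean distance on the log2 scale between each gene's 4 centred pool signals and the median of the 5 proteases, the nearest named genes outside the set were ela2 (0.342), ela2l (0.497), cela1.6 (0.764), ela3l (1.21) and the mitochondrial uncoupling protein ucp1 (1.58). The proteases themselves lay at 0.0904 (ctrb.1) to 1.24 (ctrl), so ela3l was as near as ctrl. At 3 dpf, where prss1, ctrl and ctrb.1 were below 0 on both arrays, the elastases were divided. Genotype ratios were 0.06 ± 0.23 for ela2 and 0.21 ± 0.30 for ela2l, but -1.07 ± 0.24 for cela1.6 and -0.32 ± 0.05 for ela3l. At 6 dpf ela2 had -0.72 ± 0.12, ela2l -1.04 ± 0.06, cela1.6 -1.23 ± 0.13 and ela3l -1.20 ± 0.05.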

How the data were processed

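Total RNA was hybridised to 4 two-colour Agilent arrays. The scanner files, as deposited, give for every spot a median signal and a local background as linear intensity in Cy3 and Cy5, a processed intensity, and the log10 of red over green. The scanner software's other deposited columns flag saturated spots, outliers and signals well above background. The file headers name Agilent Feature Extraction 10.5.1.1, protocol GE2_105_Dec08 and the build danRer 6 (Zv 8), while version 8.5.1.1 stands in the submitters' processing notes. The sources used here do not state the scale or direction of the deposited series table. Compared with the scanner files, 3 of its deposited columns held log2 ratios (mutant against wild type): those of 3 dpf array 2, of 6 dpf array 1 and, as a mean over both arrays to within 0.005, of 6 dpf array 2. The remaining deposited column, for 3 dpf array 1, is a score of unknown order (correlation with its array -0.005) and was not used. Column medians were 0.

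With limma 3.58.1 in R 4.3.3, median signals went through normexp (offset 50) and loess, control spots having weight 0. All ratios were given the same direction. The labels name 1 RNA sample per genotype and stage without stating that both arrays held the same extracts, so swapped arrays were averaged into 1 replicate. Pool signals came from Aquantile-scaled channels averaged over dyes. The brightest probe stood for a gene. Of 26632 genes, 18886 were tested, their probe being well above background in 1 pool or more on both its arrays. Names came from the reference tables by accession for 25625 of 43603 probes, by symbol for 3109 and by older symbol for 1423. The file's symbol was kept for 5322, and 8124 stayed unnamed.

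Within a stage there is no replicate and no test. The size rule asks for a mean log2 ratio of 1 or more in size, 0.5 or more on each array in that direction, and both arrays well above background in the higher genotype. Genotype was tested by limma as the mean of the 2 stage values against 0, and stage by limma on the 4 pools with a genotype term and a minimum log2 change of 1. Both fits leave 1 residual degree of freedom. Two-sided p-values were adjusted by Benjamini-Hochberg over all genes (threshold 0.05). In both fits the residual is the gap between the genotype ratios of the 2 stages, which limma moderates across genes. With 1 pool per genotype and stage, the p-values thus measure neither the spread among replicate pools nor that among animals. A gene passes the genotype test more readily when its ratios are alike at both stages. Both fits were tested on simulated data. Python 3.11.15, numpy 2.4.6, pandas 2.3.3 and matplotlib 3.10.9 read files and drew plots.

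The members, the 9 gene lists and the tests were chosen with earlier results of these data known. By rule the text names each member and probe, mst1, the 3 genes of each list furthest from 0 at 6 dpf, and the 5 genes nearest in profile. A gene that this rule names in 1 list is not reported here. Other genes called within a list, ptf1a, and the elastases among the top ranks by stage were chosen after their values were seen. Alternatives were the processed signals, no background subtraction, an offset of 10, probes averaged or fitted singly, no dim-probe filter, single arrays left out, a variance trend, other scalings between arrays, and the deposited table. Probe and protein sequences were not used here.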

Additional observations from a re-analysis of the deposited data

How the results depend on the processing

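All 5 genes rose from 3 to 6 dpf under every alternative run for that comparison, including quantile and no scaling between arrays, with limma adjusted p up to 0.000975. The ratio at 6 dpf kept its sign in 12 of 12 alternatives for each gene, between -1.04 (ctrl, median centring) and -0.47 (ctrb.2, array 1 left out). The 3 dpf ratio kept its sign for 4 genes, and for ctrb.2 it was 0.01 with array 1 left out and -1.72 with the processed signals. The variance trend, the dim-probe filter and leaving out an array of the other stage cannot change a probe's ratio at a stage. These alternatives kept the signs by construction, so the counts of alternatives overstate how many could have turned a sign. The count of the 5 genes past the size rule at 3 dpf was 0, and 2 with the processed signals and 2 with the deposited table. For the latter the 3 dpf value is array 2 alone, so the rule could not be asked of both arrays. Of all genes 32 passed at 3 dpf, and 122 and 169 in these 2 settings. At 6 dpf the count for the 5 genes was 0. It was 1 by median centring without loess, an alternative chosen after seeing the data, and 3 with every probe fitted separately. Leaving out single arrays gave 0 at both stages, where only an array of the same stage bears on a probe's ratio. The count of genes that fell over both stages was 2, and became 0 with the processed signals, 0 without background subtraction, 0 with all probes averaged, 0 with the deposited table and 4 with no filter on dim probes. It rose or stayed the same when single arrays were left out, where the dye no longer cancels in the stage with 1 array. Leaving aside the runs without 1 array, all 5 genes were lower in these settings at an unadjusted limma p under 0.05. So were 6.39%, 6.51%, 7.37%, 5.99% and 5.93% of all genes, in the order in which the settings are named. With an offset of 10 the call of prss1 was lost (adjusted p = 0.0534) and prss59.1 was gained (0.0305). The number of all genes that fell ranged from 14 to 363 around 115, of all genes that rose with stage from 487 to 2088 around 916, and of all genes past the size rule as lower from 20 to 169 around 32 at 3 dpf and from 41 to 149 around 50 at 6 dpf. The cause of these shifts was not tested. The 149 at 6 dpf came from the deposited table, which gives array 2 of that stage only within a mean over both arrays. No paired analysis was possible because each stage held 1 pool per genotype, and slide could not be a block because all arrays lay on 1 slide. Signal over background limits the 3 dpf values, since 4 of 10 probes were not well above background on any 3 dpf array.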
